A study of Rattus norvegicus with 8 samples.

Results

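Potassium channel genes were followed across 8 expression arrays of cultured rat hippocampal neurons in which the histone deacetylase Sirt6 was lowered with a short hairpin RNA (shRNA). The genes are those whose name on the array starts with Kcn, the prefix that rat nomenclature gives to the pore-forming and auxiliary subunits of potassium channels. The array carried 93 of them on 147 probes, of 36174 genes in all. A gene was tested if 4 or more of the 8 arrays gave at least 1 of its probes a signal well above background, and its brightest probe stood for it. This left 71 potassium channel genes of 22796 genes tested, and 69 of the 71 were well above background on all 8 arrays.

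The neurons came from Wistar rats at postnatal day 0-1 and were grown in a B27-supplemented neuronal medium. Both groups received lentiviral shRNA vectors after 3 days in vitro (multiplicity of infection 6), were incubated for another 7 days and were harvested after 10 days in vitro. The vector encoded a scrambled sequence in the 4 control samples and a hairpin against Sirt6 in the 4 others, so each group rests on 1 vector. The labels give neither the promoter that drives the hairpins nor whether a group's 4 samples were separate cultures or animals. The p-values therefore reflect the spread among these samples only, and that spread may be technical. The series asked what SIRT6 does in the shaping of neurons.

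Sirt6 served as the check of the labels. Its signal lay between 1318 and 1347 on the 4 scrambled arrays and between 446.3 and 489.3 on the 4 Sirt6 shRNA arrays, which left 34.6% of the control level (log2 difference -1.53 ± 0.040 SE, limma adjusted p = 5.65e-06). Between 60.4% and 65.3% of the 45598 non-control probes had a signal well above background on an array. All 8 arrays shared a slide, with controls in row 1 and Sirt6 shRNA samples in row 2, so an effect of the row cannot be told apart from that of the shRNA. Markers of neurons, 15 of 15 tested, were well above background on all 8 arrays, as were 15 astrocyte and 15 microglial markers, so RNA of glial marker genes was measured too.

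Potassium channels let potassium leave the cell, and so set the resting potential, end the action potential and limit repetitive firing. The Kv families open on depolarisation, Kir channels conduct best near the resting potential, K2P channels carry a background leak, and further families open with intracellular calcium or sodium. In hippocampal neurons, Kv1 channels sit on axons, Kv2 and Kv4 channels on the soma and dendrites, and Kv7 channels carry the M-current that muscarinic receptors close. Auxiliary subunits change the gating and the trafficking of the pores they bind.

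Levels are given below as log2 processed signal minus the array's 75th percentile, so a level of 0 is the signal that 75 in 100 probes of that array do not exceed. A probe's level also depends on how well it binds, so levels are compared between groups for 1 gene and never between genes. Summed linear levels of gene lists do add levels across genes, so the brightest probes of a list weigh most in them. A difference is Sirt6 shRNA minus scrambled shRNA on that scale, with n = 4 arrays per group, and a gene was called when limma's p, adjusted by Benjamini-Hochberg over all 22796 genes, was under 0.05.

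In the main fit a fold of 1.5 was reached by 4 of the called genes, Kcna1, Kcne5, Kcnk13 and Kcnh6. Under other processing the log2 difference was as small as -0.38 for Kcne5, 0.40 for Kcnk13 and 0.31 for Kcnh6, all below that fold. For 3 of the 4 the promoter, 250 bases before to 50 bases after the annotated start, was in the RefSeq promoter table of the assembly GRCr8, and these are printed because they belong to the members that differed most. Kcna1 had no entry. Capitals mark the letters of the left and right parts of the RE1 element, the site of the repressor REST, where both were found. Any spacing up to 20 bases was accepted, so the spacing need not be that of a REST site. Lower case is the rest.
Kcnh6, chromosome 10, 91449401 to 91449700, plus strand: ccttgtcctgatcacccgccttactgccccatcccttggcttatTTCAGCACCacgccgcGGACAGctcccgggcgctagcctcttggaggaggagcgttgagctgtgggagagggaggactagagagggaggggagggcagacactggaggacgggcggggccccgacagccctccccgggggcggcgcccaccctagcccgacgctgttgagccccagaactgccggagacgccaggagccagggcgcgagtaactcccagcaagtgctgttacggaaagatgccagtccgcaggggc
Kcnk13, chromosome 6, 124971559 to 124971858, plus strand: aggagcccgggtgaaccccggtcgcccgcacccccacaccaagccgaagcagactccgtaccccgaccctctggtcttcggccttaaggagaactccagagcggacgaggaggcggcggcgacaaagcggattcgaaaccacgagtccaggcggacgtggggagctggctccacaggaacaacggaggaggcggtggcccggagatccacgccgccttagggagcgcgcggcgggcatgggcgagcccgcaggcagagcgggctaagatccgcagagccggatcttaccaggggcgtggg
Kcne5, chromosome X, 110727800 to 110728099, minus strand: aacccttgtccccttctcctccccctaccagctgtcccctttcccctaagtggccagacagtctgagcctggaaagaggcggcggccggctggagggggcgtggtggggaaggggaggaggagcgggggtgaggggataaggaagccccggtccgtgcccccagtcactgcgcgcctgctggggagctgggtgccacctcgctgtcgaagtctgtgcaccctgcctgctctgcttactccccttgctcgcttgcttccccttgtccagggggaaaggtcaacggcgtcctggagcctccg
All 3 promoters were rich in CpG, with 21 CpG in Kcnh6, 33 in Kcnk13 and 15 in Kcne5, where the median over all 33469 promoters of that table was 7. This was not particular to them: among genes not called, Kcnma1 had 38 and Kcna3 had 36, while Kcna4 had 1. In Kcnh6 the left part TTCAGCACC started 206 bases before the annotated start and was followed, after 7 bases, by the right part GGACAG. Searched on both strands, the left part occurred in 0.356% of all promoters, the right part in 21.7%, and the pair within 20 bases in 13 promoters, or 0.0388%. Kcnh6 was the only one of 63 potassium channel genes with an entry to hold the left part. The motif was chosen after the letters of this promoter had been seen, and a match of letters is a description, not a site.

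The cyclic AMP response element TGACGTCA, present in 1.83% of all promoters, was in the window of none of the 63 potassium channel genes, and neither was the Egr motif GCGTGGGCG, present in 0.544%. The AP-1 motif TGACTCA, present in 4.63%, was in the windows of Kcne1 and Kcnj1, neither of which was tested. These statements concern exact letters on either strand of a window of 300 bases, and 15 of the 24 called genes had an entry.

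With the Sirt6 shRNA, 16 potassium channel genes were higher, 8 were lower and 47 were not called. The share called was 33.8%, against a background of 30.3% of all genes tested, so potassium channel genes were called about as often as other genes. By direction, 22.5% were higher where the background was 15.5%, and 11.3% were lower where it was 14.8%. The median difference was 0.030, and 0.020 over all genes tested. The median absolute difference was 0.154 against 0.143 over all genes. Most called differences were below 1.5-fold. Of the 24 called potassium channel genes 4 reached that fold, as did 14.6% of all called genes, and these are 4 of the 71 tested, with 4.4% over all genes tested.

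**Figure D1:**
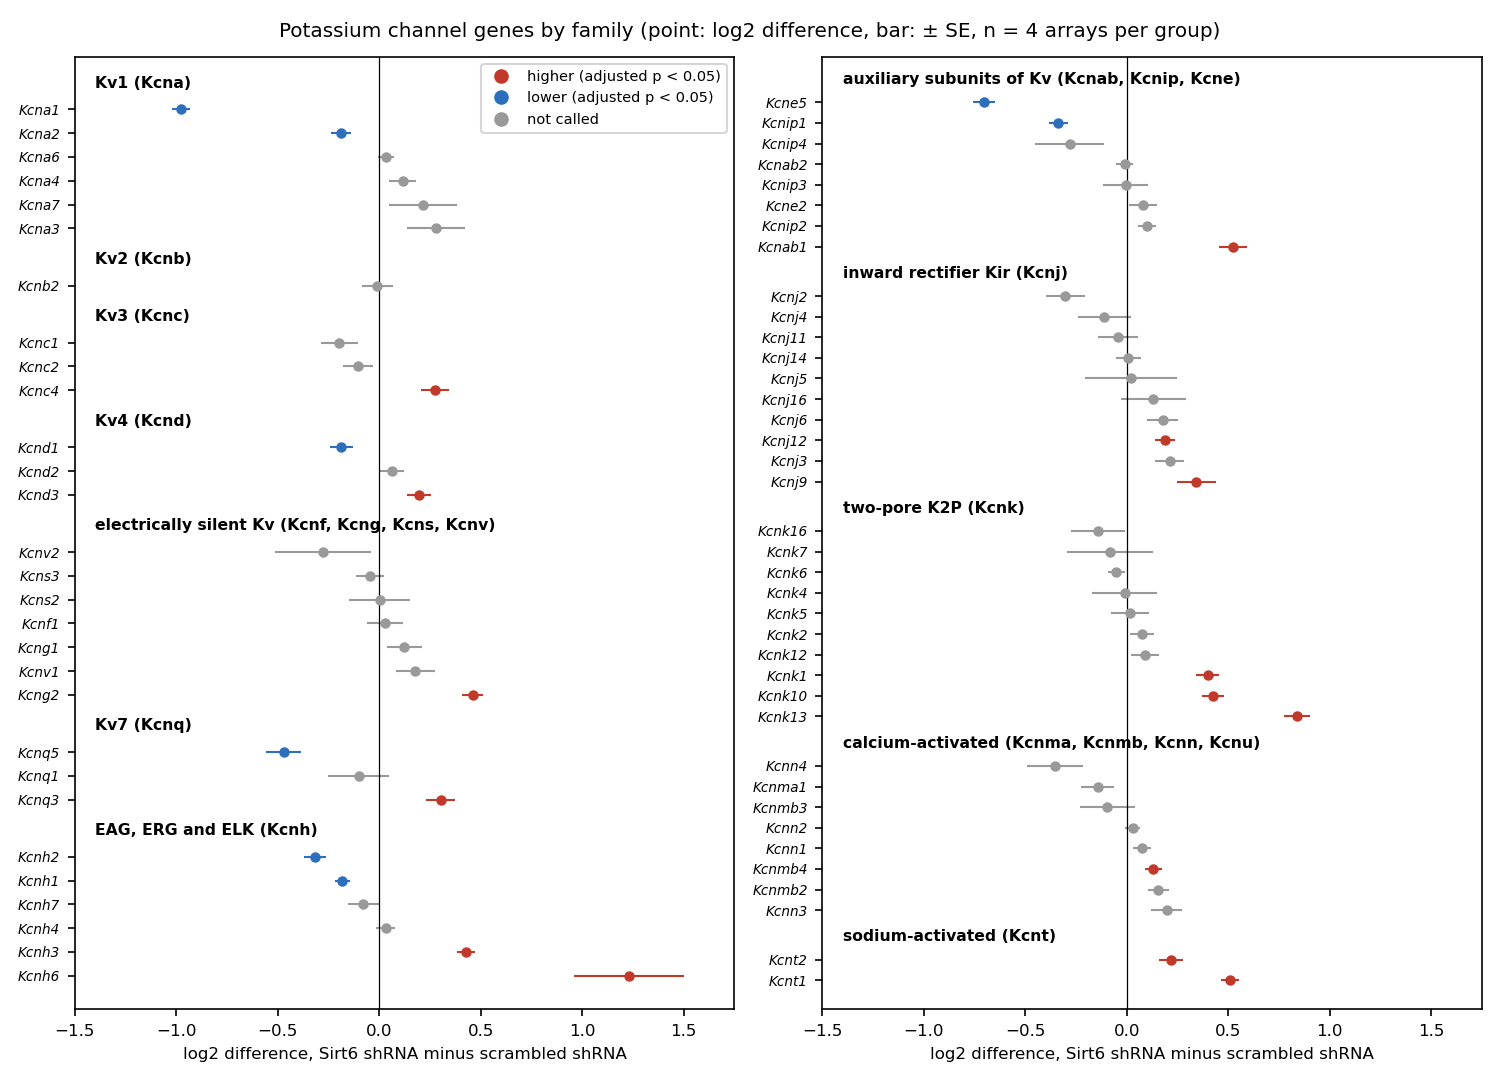
Log2 difference (Sirt6 shRNA minus scrambled shRNA, x axis) of 67 tested potassium channel genes, grouped by family. Points are limma estimates and bars ± SE with n = 4 arrays per group; red and blue mark 15 higher and 8 lower genes, which run from -0.98 for Kcna1 to 1.23 for Kcnh6.

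The groups did not overlap, that is, all 4 arrays of one group lay above all 4 of the other, for 24 potassium channel genes, or 33.8%, with 33.3% over all genes tested. These were 23 of the 24 called genes and Kcnmb2. Kcnd3 was called although its groups overlapped. Leaving out each array in turn, 16 of the 24 calls held in all 8 omissions. The other 8, Kcna2, Kcnc4, Kcnd1, Kcnd3, Kcnj9, Kcnj12, Kcnmb4 and Kcnt2, were lost in at least 1 omission, and Kcnmb4 in all 8. Scaling the arrays on their E1A spike-in probes ended 11 calls, among them those of Kcnh1, Kcnh2, Kcnip1 and, of these 8, all but Kcnj9, which left 10 higher and 3 lower genes. That scaling moved the median of all genes to 0.095 and the share of higher genes among all called genes from 51.2% to 64.0%. No called potassium channel gene changed sign under any alternative run that gave 1 value per gene. For the 23 whose groups did not overlap, leaving out an array could not have changed it. Taken as its own feature, the other probe of Kcnk13 had the opposite sign, at -0.04 ± 0.12.

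**Figure D2:**
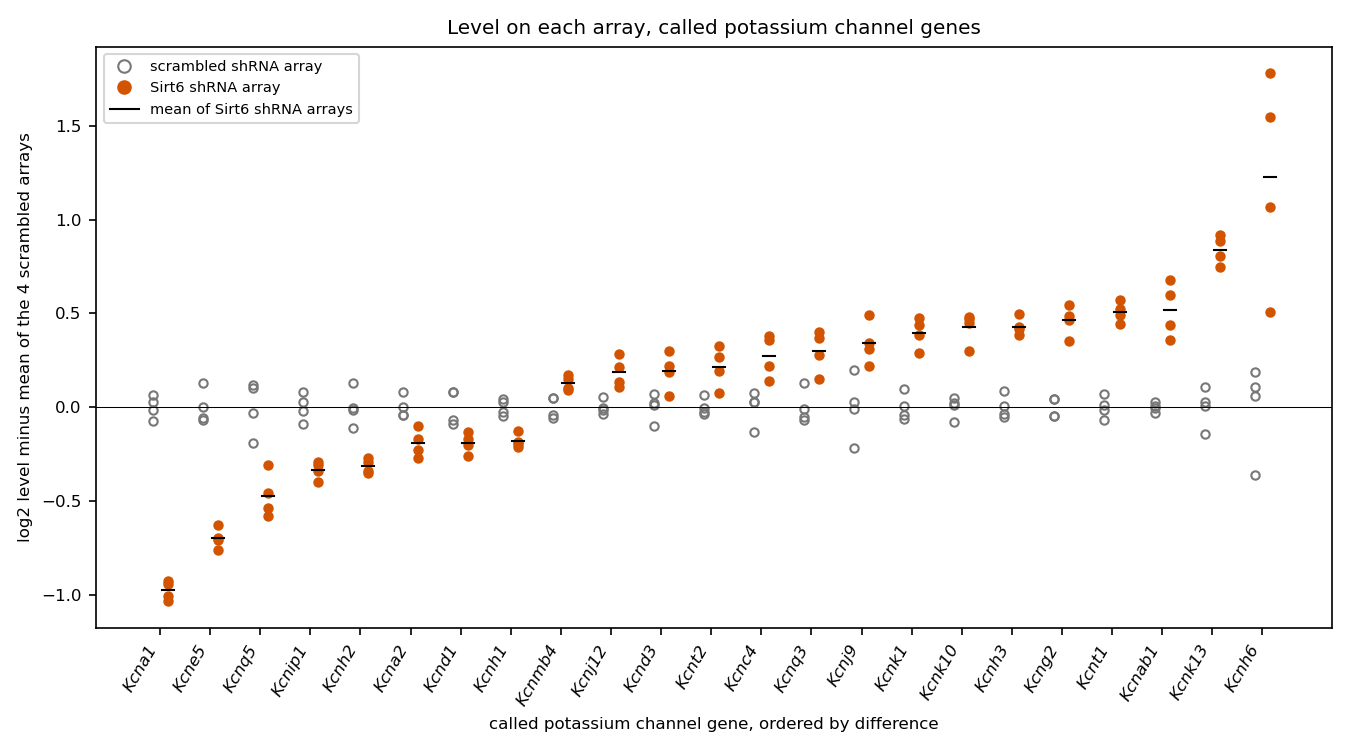
Level on each array minus the mean of the 4 scrambled arrays (y axis, log2) for 23 called potassium channel genes, ordered by difference (x axis). Open circles are scrambled shRNA arrays, filled circles Sirt6 shRNA arrays and short bars the Sirt6 shRNA means; the circles of the 2 groups lie apart for 22 genes and overlap for Kcnd3.

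Among the Kv1 genes, which encode low-threshold channels of axons and nerve terminals, 2 of the 6 tested were lower and none was higher. That is 33.3% called, near the 30.3% of all genes tested. Kcna1, which encodes Kv1.1 and is mutated in episodic ataxia, had levels of 2.24, 2.32, 2.18 and 2.28 on the scrambled arrays and of 1.33, 1.31, 1.25 and 1.22 on the Sirt6 shRNA arrays. All 4 Sirt6 shRNA arrays lay below all scrambled arrays, with a gap of 0.85 between the groups. The signal fell to 50.9% of the control level, a difference of -0.98 ± 0.044 (SE; limma adjusted p = 2.36e-05). The gene has 1 probe, located on chromosome 4 between 163012003 and 163012062 in build rn4.

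Kcna2, whose product Kv1.2 assembles with Kv1.1 in axons, differed less. Its levels were 0.64, 0.52, 0.56 and 0.52 with the scrambled shRNA and 0.46, 0.39, 0.33 and 0.29 with the Sirt6 shRNA, a difference of -0.19 ± 0.050 (limma adjusted p = 0.0234). It was called in 4 of the 8 omissions, where its adjusted p reached 0.0635. Another probe of Kcna2, 8858 bases away, was lower as well, at -0.25 ± 0.054 (limma adjusted p = 0.0123). The other 4 Kv1 genes tested, Kcna3, Kcna4, Kcna6 and Kcna7, had differences of 0.28, 0.12, 0.04 and 0.22 and were not called. Kcna5 and Kcna10 were not well above background on any array.

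Kcnb2, a delayed rectifier of the soma, had a difference of -0.01 ± 0.076 and was not called. Kv3 channels close quickly and serve fast-spiking cells. Among their genes Kcnc4 was higher, from levels of -1.76, -1.92, -1.71 and -1.76 to -1.57, -1.65, -1.41 and -1.43, a difference of 0.27 ± 0.069 (limma adjusted p = 0.0204). It was called in 6 of the 8 omissions, and not without Sirt6 shRNA replicate 3 or 4. With normexp the difference was 0.15 and still called. Kcnc1 and Kcnc2 had differences of -0.20 and -0.10 and were not called.

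Kv4 channels carry the fast A-type current of dendrites. Kcnd1 fell and Kcnd3 rose by similar amounts, at -0.19 ± 0.055 (limma adjusted p = 0.0361) and 0.20 ± 0.060 (limma adjusted p = 0.0417). Neither call was firm: Kcnd1 was called in 2 and Kcnd3 in 1 of the 8 omissions. Kcnd1 lay at -0.49, -0.51, -0.34 and -0.34 on the scrambled arrays and at -0.68, -0.59, -0.55 and -0.62 on the Sirt6 shRNA arrays. Kcnd2, which encodes Kv4.2, the main A-type subunit of hippocampal pyramidal cells, had a difference of 0.06 ± 0.060, and its other 2 probes gave -0.08 and -0.003.

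The auxiliary subunits of Kv channels gave 1 higher and 2 lower genes of 8 tested, or 37.5% called against 30.3% of all genes. Kcnip1, a calcium-binding partner of Kv4 channels found mainly in interneurons, fell from levels of 3.36, 3.31, 3.26 and 3.19 to 2.97, 2.88, 2.94 and 2.99, a difference of -0.34 ± 0.048 (limma adjusted p = 0.00163). Its other probe gave -0.36 ± 0.057. Kcnip2, Kcnip3 and Kcnip4 had differences of 0.10, -0.01 and -0.28 and were not called.

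Kcne5, a small subunit that inhibits the Kv7.1 channel, was 1.63-fold lower. It was at -2.06, -2.12, -1.93 and -2.13 on the scrambled arrays and at -2.69, -2.76, -2.82 and -2.77 on the Sirt6 shRNA arrays, with no overlap. The difference was -0.70 ± 0.054 (limma adjusted p = 1.06e-04), and another probe, 313 bases away, gave -0.88 ± 0.12. With the normexp background correction it was -0.38 and still called. Kcne2 was not called, and no array or 1 array was well above background for Kcne1, Kcne3 and Kcne4.

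Kcnab1, the beta subunit that gives Kv1 channels fast inactivation, rose. Its levels were 0.38, 0.34, 0.37 and 0.40 with the scrambled shRNA and 0.81, 0.73, 0.97 and 1.05 with the Sirt6 shRNA, a difference of 0.52 ± 0.070 (limma adjusted p = 0.00129). The Sirt6 shRNA arrays spread more widely than the controls but every one lay above them. Kcnab2 differed by -0.01 ± 0.042, with another probe at 0.14 ± 0.069, and neither was called.

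Electrically silent subunits form no channel of their own and join Kv2 subunits. Their share called was 14.3%, where it was 30.3% over all genes tested. Of 7 tested, only Kcng2 was called, higher, from 1.40, 1.31, 1.31 and 1.40 to 1.90, 1.71, 1.84 and 1.82. The difference was 0.46 ± 0.050 (limma adjusted p = 4.70e-04), and the gene's other probe gave 0.52 ± 0.061. Kcng1 had a difference of 0.12 ± 0.087, and its other probe -0.05 ± 0.083. Kcnf1, Kcns2, Kcns3, Kcnv1 and Kcnv2 lay between -0.28 and 0.18 and were not called.

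Among the Kv7 genes, Kcnq5 fell, Kcnq3 rose, and Kcnq1 was not called. Kcnq3, a subunit of the M-channel of the forebrain, went from levels of 0.89, 0.69, 0.71 and 0.75 to 1.16, 1.13, 0.91 and 1.04. The difference was 0.30 ± 0.069 (limma adjusted p = 0.0136), and the gene's other probe gave 0.47 ± 0.083. Kcnq5, the other M-channel subunit of the hippocampus, went from -3.84, -3.68, -3.53 and -3.55 to -4.19, -3.96, -4.23 and -4.11. That is a difference of -0.47 ± 0.086 (limma adjusted p = 0.00503), which shrank to -0.17 with normexp and to -0.29 with 16 added to each signal, and was called in both.

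The Kcnh genes, which encode the EAG, ERG and ELK channels, divided evenly, with 2 higher and 2 lower of 6 tested. That is 66.7% called, against 30.3% of all genes tested. Kcnh6 gave the largest difference of all potassium channel genes, on a dim probe. Its processed signal was 8.15, 12.2, 11.6 and 11.6 on the scrambled arrays and 38.2, 15.5, 33.6 and 22.7 on the Sirt6 shRNA arrays. The Sirt6 shRNA arrays were all higher, but ranged widely, with replicate 2 close to the controls. All 8 arrays were well above background.

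The rise of Kcnh6 was 1.23 ± 0.27 on the log2 scale, or 2.34-fold (limma adjusted p = 0.0114), with the largest SE of the 71 genes. Its size depended on how background was handled: it was 0.31 with normexp and 0.63 with 16 added to each signal, and was called in both. Kcnh6 encodes an ERG channel, and the related Kcnh2, whose product repolarises the heart, moved the other way. Kcnh2 went from -0.58, -0.57, -0.44 and -0.68 to -0.84, -0.91, -0.86 and -0.92, a difference of -0.32 ± 0.055 (limma adjusted p = 0.00398). The ERG gene Kcnh7 had a difference of -0.08 ± 0.076 and was not called.

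Kcnh3, an ELK channel of the forebrain, rose from levels of 2.81, 2.69, 2.73 and 2.67 to 3.15, 3.11, 3.14 and 3.22. The difference was 0.43 ± 0.044 (limma adjusted p = 3.75e-04), with another probe at 0.44 ± 0.051. Kcnh1, an EAG channel, fell from 1.1, 1.08, 1.15 and 1.17 to 0.94, 0.91, 0.93 and 1.00, by -0.18 ± 0.038 (limma adjusted p = 0.00973). Kcnh4 was not called, and Kcnh5 and Kcnh8 were not tested.

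The K2P genes gave 3 higher and no lower genes of 10 tested, a share called of 30.0% against 30.3% of all genes. Kcnk13, which encodes a leak channel that microglia use, was at -0.32, -0.30, -0.47 and -0.22 on the scrambled arrays and at 0.48, 0.42, 0.59 and 0.56 on the Sirt6 shRNA arrays. This was a 1.79-fold rise (0.84 ± 0.063, limma adjusted p = 9.36e-05) with no overlap. The gene's other probe did not show it: that probe gave -0.04 ± 0.12 (limma adjusted p = 0.843), and the mean of both probes 0.40. The other probe lies on chromosome 6 at 124174339 to 124174398 of rn4, and the files give no position for the brightest. Of 15 microglial markers, 4 were lower and none higher, or 26.7% called against 30.3% of all genes tested, of which 14.8% were lower. Their median was -0.53, and their summed linear level was 62.1 to 82.3 on the scrambled arrays and 45.4 to 78.4 on the Sirt6 shRNA arrays. The part of microglia in the value of Kcnk13 was not tested.

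Kcnk10, a leak channel opened by stretch and lipids, rose from -0.11, -0.08, -0.12 and -0.21 to 0.34, 0.35, 0.32 and 0.17, a difference of 0.43 ± 0.054 (limma adjusted p = 9.39e-04). Its other probe gave 0.60 ± 0.13. Kcnk1, which encodes TWIK1, rose from 2.26, 2.10, 2.17 and 2.12 to 2.55, 2.45, 2.60 and 2.64, by 0.40 ± 0.056 (limma adjusted p = 0.00149). Its other probe gave a like value of 0.41 with an SE of 0.15 and was not called (limma adjusted p = 0.0731). The other 7 K2P genes lay between -0.14 and 0.09.

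**Figure D3:**
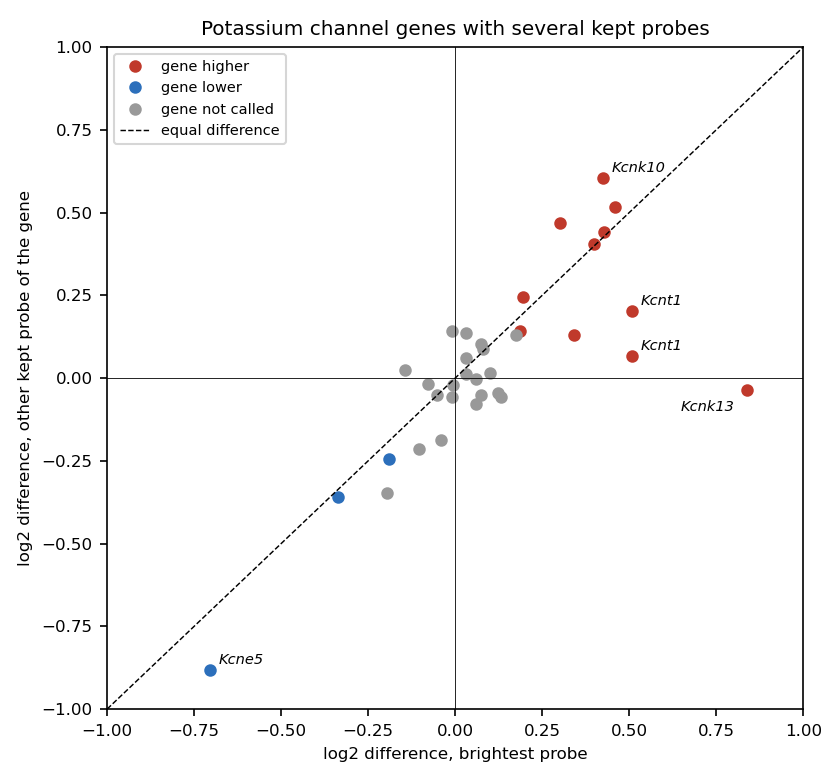
Log2 difference of the brightest probe (x axis) against that of each other kept probe of the same gene (y axis), for 31 potassium channel genes with several kept probes and 35 other probes. The dashed line marks equal differences; Kcnk13, with 0.84 against -0.04, lies farthest below it among the called genes.

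Over all families, 13 called genes had another kept probe, 14 in total. The sign was the same for 13 of the 14, 7 were called the same way, 7 were not called and none was called the other way. The exception in sign was Kcnk13. The 7 called the same way belong to Kcna2, Kcne5, Kcng2, Kcnh3, Kcnip1, Kcnk10 and Kcnq3.

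Both sodium-activated channels, which carry a slow current after bursts, were higher, where 15.5% of all genes tested were. Kcnt1 was at 0.05, 0.10, 0.19 and 0.13 with the scrambled shRNA and at 0.69, 0.61, 0.64 and 0.56 with the Sirt6 shRNA, a difference of 0.51 ± 0.045 (limma adjusted p = 1.89e-04). Its 3 probes disagreed in size. The brightest lies on chromosome 3 at 4088922 to 4088981 of rn4, and the others, 952 and 1202 bases away, gave 0.20 ± 0.075 and 0.07 ± 0.10 and were not called (limma adjusted p = 0.0787 and 0.664). The mean of the 3 was 0.26.

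Kcnt2 went from levels of -1.18, -1.27, -1.28 and -1.25 to -1.17, -0.98, -1.05 and -0.92, a difference of 0.22 ± 0.058 (limma adjusted p = 0.0252). It was called in 2 of the 8 omissions, and not with normexp, where the difference was 0.11.

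Of the calcium-activated channels and their subunits, 1 of 8 was called, or 12.5% against 30.3% of all genes tested. Kcnmb4, the neuronal beta subunit of BK channels, went from 2.52, 2.43, 2.52 and 2.41 to 2.56, 2.57, 2.62 and 2.64, a difference of 0.13 ± 0.042 (limma adjusted p = 0.0495). The groups were apart, but leaving out any array ended the call. Kcnmb2, a beta subunit that gives BK channels inactivation, had 0.59, 0.53, 0.42 and 0.38 on the scrambled arrays and 0.63, 0.65, 0.62 and 0.64 on the Sirt6 shRNA arrays. Its groups were apart too, and it was just short of a call at 0.15 ± 0.052 (limma adjusted p = 0.0561), with calls in 6 of the 13 other settings that kept all arrays.

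Kcnma1, the pore of the BK channel, had a difference of -0.14 ± 0.081 and was not called, and its other probe gave 0.02 ± 0.11. The small-conductance genes Kcnn1, Kcnn2 and Kcnn3 had differences of 0.07, 0.03 and 0.20. Kcnn4, the intermediate-conductance channel, had -0.35 ± 0.14. None of the 4 was called.

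Inward rectifiers gave 2 higher and no lower genes of 10 tested, or 20% called against 30.3% of all genes tested. Kcnj9, a subunit of the G-protein-gated channels that inhibitory receptors open, went from -2.76, -2.97, -2.55 and -2.72 to -2.53, -2.41, -2.26 and -2.44, a difference of 0.34 ± 0.096 (limma adjusted p = 0.0297). Its other probe gave 0.13 ± 0.098 and was not called, and with normexp the difference was 0.15. The partner genes Kcnj3 and Kcnj6 had differences of 0.21 ± 0.072 and 0.18 ± 0.076 and were not called (limma adjusted p = 0.0582 and 0.119).

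Kcnj12, which encodes Kir2.2, went from 0.04, 0.05, 0.02 and 0.11 to 0.16, 0.27, 0.19 and 0.34, a difference of 0.19 ± 0.049 (limma adjusted p = 0.023). Its other probe gave 0.14 ± 0.14. Calls of Kcnj12 held in 4 and of Kcnj9 in 2 of the 8 omissions. Kcnj2, which encodes Kir2.1, had a difference of -0.30 ± 0.098 and was not called (limma adjusted p = 0.0503), but it was called lower in 8 of 13 other settings that kept all 8 arrays. Kcnj3 was called higher in 7 of those 13.

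Kcnj10, the Kir4.1 channel of astrocytes, was not tested, because its probe was well above background on 2 scrambled arrays and on no Sirt6 shRNA array. Without the filter on dim probes it had a difference of -1.21 ± 0.19 (limma adjusted p = 0.00619), a size that rests on signals near background. Kcnj16, its partner in astrocytes, was tested and had 0.13 ± 0.16, with another probe at -0.06 ± 0.086. Of 15 astrocyte markers, 11 were lower and 1 was higher, or 80% called against 30.3% of all genes tested, of which 14.8% were lower. Their median was -0.33, and their summed linear level was 459 to 502 on the scrambled arrays and 326 to 363 on the Sirt6 shRNA arrays. S100b fell most, by -1.42 ± 0.078, and Gfap by -0.71 ± 0.069, while Gjb6 rose by 1.15 ± 0.11. Fewer cells of a type and less RNA per cell cannot be told apart in these samples, and the part of either in the values of Kcnj10 was not tested.

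Another 12 genes were well above background on no array: Kcna5, Kcna10, Kcne1, Kcng4, Kcnh5, Kcnj1, Kcnj8, Kcnj15, Kcnk15, Kcnk18, Kcnmb1 and Kcnrg. The remaining untested genes reached 1 to 3 arrays. These were Kcne3, Kcne4, Kcnj13 and Kcnk9 on 1 array, and Kcnab3, Kcng3, Kcnh8, Kcnk3 and Kcns1 on 3. Among the 47 genes tested but not called, differences ran from -0.35 to 0.28, and 25 lay within 0.1 of 0. The median SE over the 71 genes was 0.070, so for most of them a change of the size seen in Kcnmb4 would not have been called.

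Genes that act with potassium channels were examined as lists. Of 26 tested partners, which anchor channels, bind them or alter their gating, 7 were higher and 1 was lower, with a median of 0.065. The share called was 30.8%, near the 30.3% of all genes tested. Proteins tied to Kv1 complexes went both ways: the secreted protein Lgi3 fell by -0.55 ± 0.062 (limma adjusted p = 5.63e-04), while Cntnap2 rose by 0.25 ± 0.048 (limma adjusted p = 0.00672) and Adam22 by 0.15 ± 0.040 (limma adjusted p = 0.0253). Cntn2, Adam23 and Lgi1 had differences of 0.11, 0.13 and -0.15 and were not called. Lrrc55, an auxiliary subunit of BK channels, rose by 0.35 ± 0.037, and Dpp6, which speeds Kv4 channels, by 0.26 ± 0.049.

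Abcc9, the sulfonylurea receptor that pairs with the channel of Kcnj8 in mural cells, was higher by 1.18 ± 0.27 (limma adjusted p = 0.0129), with 2 of the 4 scrambled and all 4 Sirt6 shRNA arrays well above background. Its scrambled levels were -6.58, -5.76, -5.43 and -6.59, so the size rests on control signals near background, and the Sirt6 shRNA arrays alone would have passed it through the filter. Kcnj8 itself was above background on none. Endothelial and mural markers, among which Abcc9 is counted too, were higher for 5 and lower for none of 12 tested. That is 41.7% called, against 30.3% of all genes tested, of which 15.5% were higher. The 5 were Tagln, Abcc9, Myh11, Acta2 and Kdr. Pecam1, Vwf, Pdgfrb, Anpep, Notch3, Cdh5 and Tek were not called, at -0.46, -0.09, -0.07, 0.08, 0.12, 0.23 and 0.41. The median of the 12 was 0.32, and their summed linear level was 8.19 to 9.33 on the scrambled arrays and 15.9 to 19.2 on the Sirt6 shRNA arrays. Tagln gave most of that rise, at 2.14 ± 0.11, while Cldn5, Flt1 and Rgs5 were not tested because too few arrays measured them. The part of such cells in the value of Abcc9 was not tested.

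Pumps and cotransporters, which set the potassium and chloride gradients, gave 3 higher and 6 lower genes of 19 tested, with a median of -0.063 and a share called of 47.4%. Over all genes tested that share was 30.3%. The sodium pump subunits Atp1b1 and Atp1b3 fell, by -0.58 ± 0.038 (limma adjusted p = 6e-05) and -0.56 ± 0.038. Atp1b1 was at 5.93, 5.98, 5.97 and 6.01 on the scrambled arrays and at 5.35, 5.42, 5.37 and 5.45 on the Sirt6 shRNA arrays, well apart. Fxyd2, a regulator of the pump, rose by 0.59 ± 0.18 (limma adjusted p = 0.0389). The neuronal chloride extruder Slc12a5 had a difference of 0.02 and was not called. Astrocyte markers fell in the same samples, as given above, and their part in these values was not tested.

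HCN and sodium leak channels, which depolarise against potassium leak, gave 2 higher and no lower genes of 7 tested, with a median of 0.079. The share called was 28.6%, near the background of 30.3%. Hcn4 rose by 0.30 ± 0.062 (limma adjusted p = 0.00929) and Nalcn by 0.26 ± 0.061 (limma adjusted p = 0.0153). Immediate early genes, which follow neuronal activity, were lower for 13 and higher for none of 18 tested, with a median of -0.76 and a share called of 72.2%. Over all genes tested 30.3% were called and 14.8% were lower. The 13 include Npas4, which was well above background on the 4 scrambled arrays and on no Sirt6 shRNA array, so it passed the filter through the group where it is high. Fosb fell by -2.38 ± 0.11 and Arc by -1.92 ± 0.12.

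Medians of the other marker lists lay between -0.16 and 0.21. Neuronal markers were higher for 6 and lower for 1 of 15, with a median of 0.098 and a summed linear level of 304 to 315 against 313 to 345. Excitatory markers were higher for 5 and lower for none of 12, with a median of 0.12 and 63.6 to 67.7 against 68.3 to 73.8. Interneuron markers were higher for 3 and lower for 7 of 16, with a median of -0.16 and 153 to 174 against 129 to 143. The largest called differences were those of Cort, at -1.23 ± 0.080, Pvalb, at -0.84 ± 0.077, Calb2, at 0.49 ± 0.061, and Gad1, at -0.41 ± 0.047. Oligodendrocyte markers were higher for 1 and lower for 3 of 13, with a median of -0.051 and 51.7 to 57.1 against 47.0 to 48.3. Fibroblast markers were higher for 6 and lower for 2 of 11, with a median of 0.21 and 48.5 to 51.9 against 49.1 to 52.2. Over the 8 marker lists the share called ran from 26.7% for microglia to 80.0% for astrocytes, with 30.3% over all genes tested. The part of the cell makeup in any potassium channel value was not tested.

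**Figure D4:**
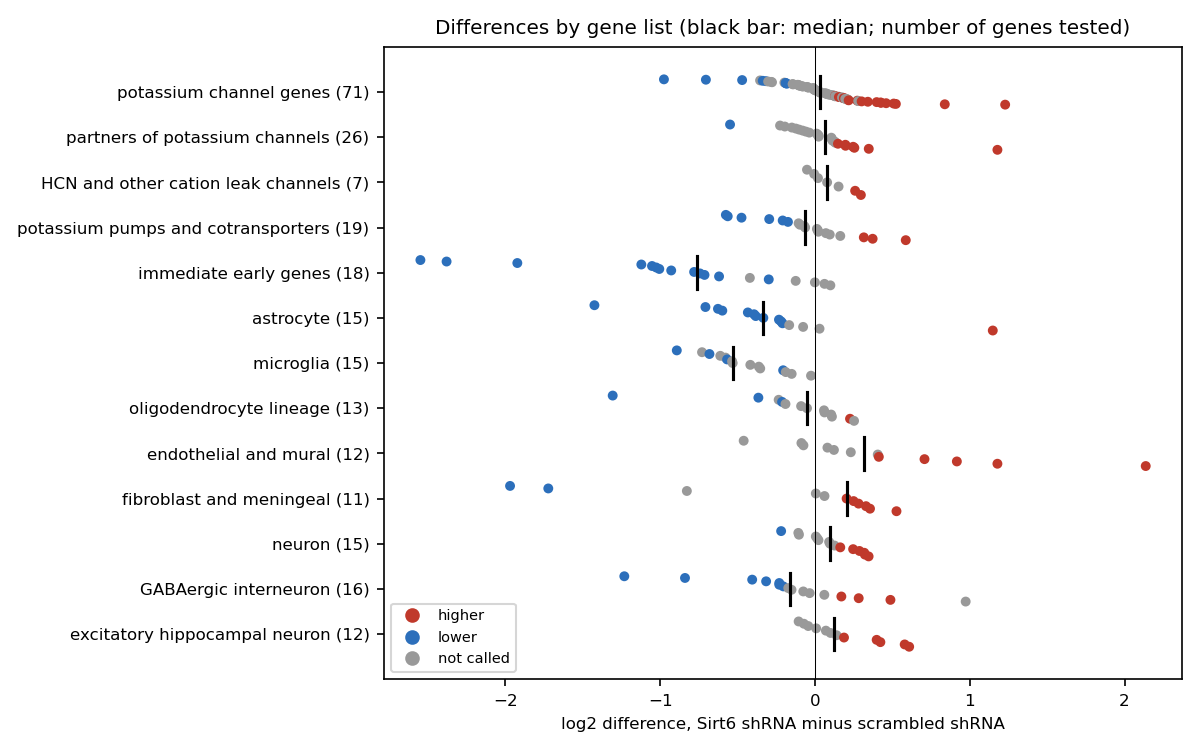
Log2 difference (x axis) of each tested gene in the potassium channel set and in 12 lists of other genes (rows, with the number tested). Points are genes, red higher, blue lower and grey not called, and black bars are medians, which run from -0.76 for immediate early genes to 0.32 for endothelial and mural markers, with potassium channel genes at 0.030.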

How the data were processed

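RNA of 8 samples, 4 per group, was labelled with Cy3 from 100 ng total RNA and hybridised to 1-colour arrays. The spot intensity values deposited are, per the file headers, signals that were background-subtracted and detrended in Agilent Feature Extraction 11.5.1.1 (version also per the submitters' processing notes) and are not normalised between arrays. A deposited table of the authors' log2 values equalled the same signals minus 1 constant per array, with an SD of the difference of 0.0029. Control spots and outlier spots were left out, log2 signals of a probe's spots averaged, and the 75th percentile of the array subtracted. Of 45598 probes, 28620 were well above background on at least 4 arrays, and the brightest stood for each gene name. The two-sided test was lmFit with eBayes of limma 3.58.1 (R 4.3.3), adjusted by Benjamini-Hochberg over 22796 genes and called under 0.05, and was tested on simulated data. The number of arrays limits the precision.

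The genes named are Sirt6 and every called potassium channel gene, except that some genes are counted but not reported here by name or drawn by family. Of those not called, the rule takes the brightest of each family, any whose groups do not overlap and any whose probes differ in call or sign, and of each list up to 4 called genes of largest difference. Other genes were named after their values were seen. The members, gene lists (partners, HCN and leak channels, pumps, immediate early genes, and markers of 8 cell types) and alternatives were chosen with earlier results of these data known. A list's summed linear level adds 2 to the power of each level. Probe positions are those of build rn4 in the files. All 147 probes carried a gene name equal to their symbol in a RefSeq table of GRCr8. The exon or UTR of a probe was not analysed here. Alternatives covered background correction, scaling, the authors' log2 values, the filter, the choice of probe, gene names, variance options, the replicate block and the omission of each array.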

Additional observations from a re-analysis of the deposited data

Results flagged for a closer look

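Scrambled shRNA replicate 1 stood apart from the other scrambled arrays for Kcnma1, the pore of the BK channel, with a level of -1.15 where the nearest of the others was at -1.45 and the farthest at -1.46. The gap was 0.961 of the group's range, above Dixon's critical value for 4 samples. It was the only one of 72 groups examined to stand out so, and chance passes this limit in about 1 of 20 groups. The groups examined did not cover every potassium channel gene tested, and Kcnip3, Kcnq1 and Kcnh4 were not among them. Kcnip3 was at -3.8 on Sirt6 shRNA replicate 1 and at -3.36, -3.37 and -3.35 on the other Sirt6 shRNA arrays. Outlying arrays in genes outside the groups examined are therefore not excluded. The Sirt6 shRNA arrays lay between -1.62 and -1.43 for Kcnma1.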

How the results depend on the processing

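None of the 24 called potassium channel genes changed sign under any alternative run with 1 value per gene, and 12 were called under every one of these. For genes whose groups did not overlap, omitting an array could not change the sign. The authors' log2 values and the RefSeq names gave the same calls as the main fit. Scaling on the E1A spike-in probes left 10 higher and 3 lower, with a median difference of 0.104; it moved the median of all genes from 0.020 to 0.095 and the share of higher genes among all called genes from 51.2% to 64.0%. It ended 11 calls, among them those of Kcna2, Kcnc4, Kcnd1, Kcnd3, Kcnh1, Kcnh2, Kcnip1, Kcnj12, Kcnmb4 and Kcnt2. Testing all probes without the filter left 11 higher and 7 lower, with a median of 0.061. The other settings gave 13 to 19 higher and 8 to 10 lower. Leaving out each array in turn gave 11 to 14 higher, 6 to 9 lower and medians of 0.013 to 0.065; 11 were higher without scrambled shRNA replicate 2 or Sirt6 shRNA replicate 3. With the replicate number as a block, 17 were higher and 9 lower; the calls of Kcnmb4 and Kcnt2 were lost, and those gained included Kcnj2, Kcnj3 and Kcnn3. Over the genes tested, deviations of same-numbered samples correlated at 0.064, 0.162, 0.133 and 0.034. Not every sample correlated best with its own number, so the main fit did not pair samples. A pairing is not excluded by this: the microglial markers Aif1 and C1qa ranked replicates 2, 4, 1 and 3 from high to low in both groups. Aif1 was at 3.49, 3.91, 3.37 and 3.67 on the scrambled arrays and at 2.88, 3.70, 2.62 and 2.93 on the Sirt6 shRNA arrays. Values of the marker lists are from the fit without pairing. For dim probes such as those of Kcnh6 and Kcnq5, the size of a difference is limited by their signal over background.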
